A study of Mus musculus with 8 samples.

Results

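The T cell receptor variable genes, or V genes, encode the part of each receptor chain that contacts antigen. They were taken as the genes with the biotype TR_V_gene in GENCODE M21 and a symbol that begins with Trav, Trbv, Trdv, Trgv or Tcrg-V. Of the 51826 genes counted, 142 met this definition: 108 Trav genes of the alpha chain, 22 Trbv genes of the beta chain, 5 Trdv genes of the delta chain and 7 Trgv or Tcrg-V genes of the gamma chain. Among the Trav genes, 10 carry a dv suffix because they can also be joined into delta chains.

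Spleens of female BALB/c mice at an age of 3 months were the source of the RNA, which was sequenced from all splenocytes together. The tRA group (n = 4) was dosed orally each day from weaning with all-trans retinoic acid, the active metabolite of vitamin A, at 1 mg/kg body weight in canola oil. The control group (n = 4) received the oil alone. Pristane, which induces lupus in this strain, was not injected in either group, and the comparison asks what tRA by itself did to the splenocytes. The sample labels state the tRA dose for all 8 samples, and the groups rest on the sample titles. Splenocytes were not sorted, so that V gene counts came from all T cells of the spleen together, mixed with RNA of B cells, myeloid cells and other cells. In such bulk RNA, fewer T cells and less receptor RNA per T cell cannot be told apart. The reads were counted on a C57BL/6J genome (GRCm38), whereas the mice were BALB/c, and the part that strain differences in V genes play in the counts was not tested.

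In developing T cells, V(D)J recombination joins a V segment to a J segment, with a D segment between them in beta and delta chains, and splicing then joins the rearranged exon to a constant region. Each mature alpha beta T cell thus transcribes mainly the V genes it has rearranged, and V gene RNA of a whole spleen reflects the usage of many clones at the same time. Counts per V gene do not show the junction, the pairing of chains or the clones.

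The total count was 37539631, 31833853, 35924683 and 30919272 in control mice 1 to 4. In tRA mice 1 to 4 it was 33755595, 31810417, 35165876 and 32042754. Of the 142 V genes, 37 had 0 counts in all 8 mice, 105 had at least 1 count, and 77 were counted in every mouse. A count of 0 over all mice allows a level of up to 0.0112 CPM (3 counts of the summed total; CPM are counts scaled to a common library size after normalization), a limit for counting error alone. All 37 genes without counts were Trav genes. The filter on low counts left 67 V genes for testing, namely 42 Trav, 19 Trbv, 3 Trdv and 3 Trgv or Tcrg-V genes. These were also the 67 genes with a mean of at least 10 counts over the 8 mice. The filter asked for about 0.304 CPM in at least 4 mice, a level that 53 of the 67 reached in all mice of both groups. In 7 (Trav10n, Trav13-2, Trav3-1, Trav6-2, Trav6d-5, Trav7d-3 and Trav8n-2) all tRA but not all control mice reached it, in 3 (Trav10, Trav9-1 and Trbv5) the reverse held, and in 4 (Trav4-3, Trav5-4, Trav6-3 and Trdv5) neither group reached it in full. The other 75 comprised the 37 genes at 0 and 38 genes with few counts, of which the highest mean was 8.75 counts.

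Summed over all 108 Trav genes, the level was 35.6, 38.3, 32.8 and 46.9 CPM in control mice 1 to 4 and 43.2, 47.7, 46.4 and 49.4 CPM in tRA mice 1 to 4. The group means were 38.4 ± 6.07 CPM (SD, n = 4) in control and 46.7 ± 2.63 CPM (SD, n = 4) in tRA mice, a difference of 21.6% of the control mean. The 3 lowest sums were those of control mice 1, 2 and 3, while control mouse 4 lay among the tRA mice, so that the groups overlapped. The sum over the 22 Trbv genes was 95.9, 87.4, 88.7 and 101 CPM in control mice 1 to 4 and 98.2, 98.9, 99.2 and 104 CPM in tRA mice 1 to 4. Its group means differed by 7.43%, and control mouse 4 was above all tRA mice but tRA mouse 4. The Trdv sum was 1.84, 1.21, 2.22 and 1.87 CPM in control mice 1 to 4 and 2.05, 1.89, 2.52 and 1.59 CPM in tRA mice 1 to 4. The Trgv and Tcrg-V sum was 1.73, 2.33, 1.76 and 2.04 CPM in control mice 1 to 4 and 1.497, 1.73, 2.68 and 2.47 CPM in tRA mice 1 to 4. For both gamma delta chains the lowest and highest sums were not separated by group, and the counts behind them were few. These sums were not tested.

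The constant regions, which every receptor transcript of a chain shares, gave a second view of the same chains. Trac, the alpha constant region, was at 259.7, 265, 289.7 and 322 CPM in control mice 1 to 4 and 334, 300.1, 291 and 310.4 CPM in tRA mice 1 to 4. Trbc1 and Trbc2, the beta constant regions, summed to 279, 278, 357 and 301 CPM in control mice 1 to 4 and 362, 295, 279 and 299 CPM in tRA mice 1 to 4. Control mouse 3 and tRA mouse 1 had the highest beta constant levels of their groups, and both groups overlapped throughout. Trav counts as a percentage of Trac counts were 13.7, 14.5, 11.3 and 14.5% in control mice 1 to 4 and 12.9, 15.9, 16.0 and 15.9% in tRA mice 1 to 4. For Trbv over Trbc1 and Trbc2 the percentages were 34.4, 31.4, 24.9 and 33.5% in control and 27.1, 33.5, 35.6 and 34.9% in tRA mice. For both ratios, control mouse 3 and tRA mouse 1 were the lowest of their groups, and the groups overlapped. Per length (CPM per kb of exon, mean of 8 mice), the summed V level was 109.6 for Trav beside 317 for Trac, and 245 for Trbv beside 429 for Trbc1 and Trbc2. It was 4.93 for Trdv beside 4.79 for Trdc, and 4.82 for Trgv and Tcrg-V beside 12.1 for the gamma constant genes. On this scale the alpha and beta V genes thus summed to less than their constant regions, and reads lost from V exons at the junction or between near-identical copies were not counted here. The Trdv sum leaves out the 10 dv genes, which delta chains can also use and which are part of the Trav sum. It includes Trdv5, which overlaps Trdc on the other strand, so that the delta values are not comparable with those of alpha and beta.

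**Figure D1:**
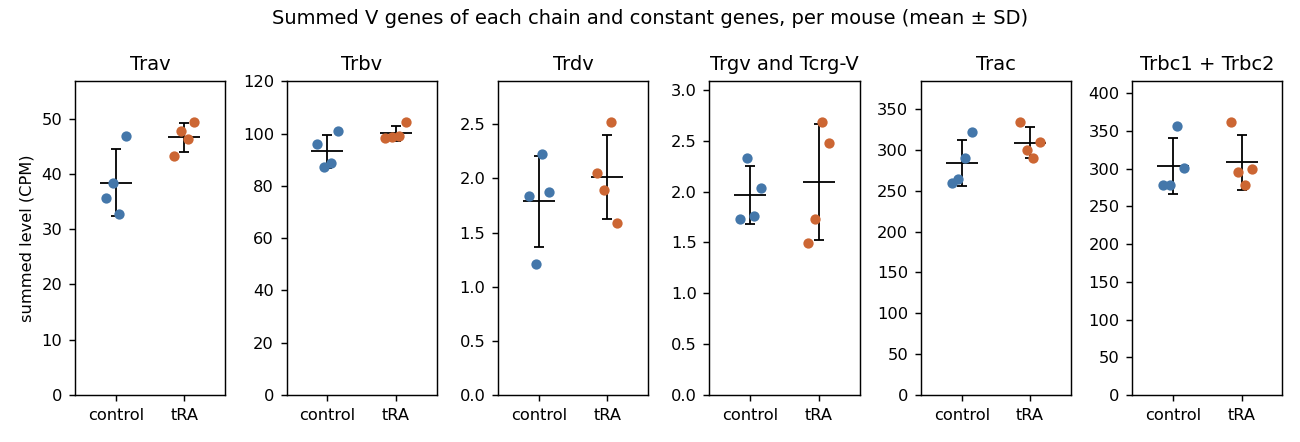
Summed CPM of the V genes of each chain and of the alpha and beta constant genes in each of 4 control and 4 tRA mice, with group mean and SD. The Trav mean is 38.4 CPM in control and 46.7 CPM in tRA mice, and the groups overlap in every panel.

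Among the Trbv genes, levels per length spanned from 0.173 CPM per kb for Trbv21 to 34.1 CPM per kb for Trbv13-2 (means of 8 mice). The highest 5 were Trbv13-2, Trbv13-1, Trbv20, Trbv13-3 and Trbv19, which together made up 54.0% ± 1.03 (SD, n = 4) of the summed Trbv level per length in control mice and 53.1% ± 1.77 (SD, n = 4) in tRA mice. The 3 Trbv13 genes encode the V beta 8 family (synonyms Tcrb-V8.1 to Tcrb-V8.3), the main partner of the invariant alpha chain of natural killer T (NKT) cells and also common on conventional T cells. Their share per length was 38.4, 37.7, 35.3 and 37.5% in control mice 1 to 4 and 34.3, 36.6, 34.4 and 36.8% in tRA mice 1 to 4, with overlapping groups. Trbv13-2 (ENSMUSG00000076469, chromosome 6 from 41121396 to 41121832) was measured at 11.4, 10.5, 10.1 and 12.7 CPM in control mice 1 to 4 and 11.7, 11.7, 10.7 and 13.9 CPM in tRA mice 1 to 4. Trbv13-1 was at 13.3, 13.2, 10.6 and 13.2 CPM in control mice 1 to 4 and 10.9, 12.1, 12.5 and 12.99 CPM in tRA mice 1 to 4. These neighbours in the order, at 34.1 and 33.8 CPM per kb, did not differ beyond the spread between mice, and neither did Trbv20 and Trbv13-3 at 23.3 and 21.3 CPM per kb. Control mouse 3 had the lowest Trbv13-1 level of all 8 mice.

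**Figure D2:**
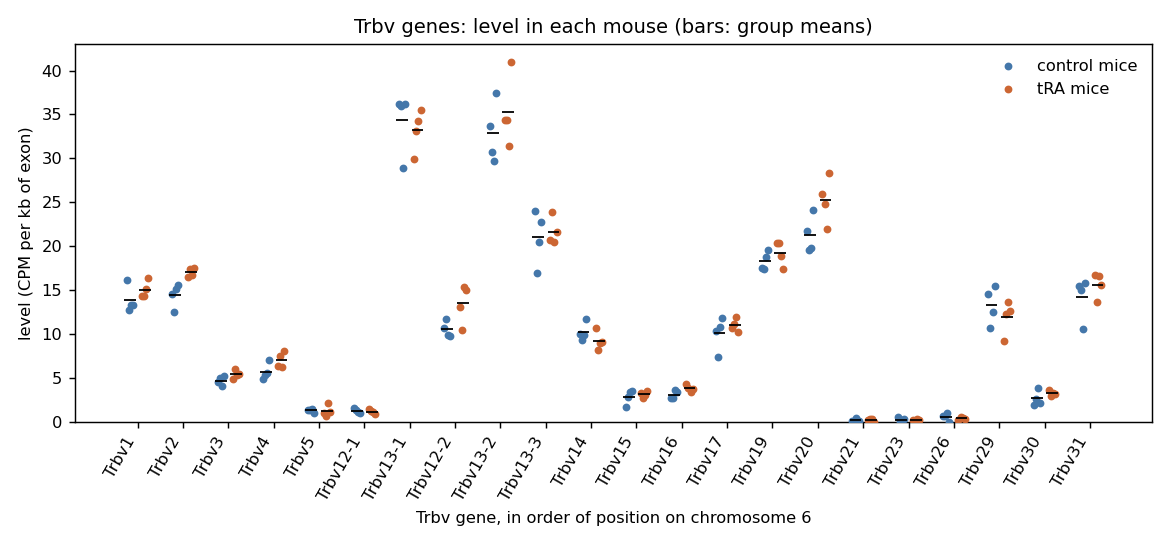
Level of each of the 22 Trbv genes in CPM per kb of exon for 4 control and 4 tRA mice, in order of position on chromosome 6, with group means as bars. Trbv13-2 and Trbv13-1 are highest, at means of 34.1 and 33.8 CPM per kb over 8 mice, and Trbv21, Trbv23 and Trbv26 lie near 0.

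Because copies of V genes can be alike, the V exons of Trbv13-1 and Trbv13-2 are shown to make visible how reads of the highest beta genes can be told apart. In GENCODE M21 on GRCm38, the coding V exon lies on chromosome 6 from 41116175 to 41116468 for Trbv13-1 and on chromosome 6 from 41121539 to 41121832 for Trbv13-2, both on the plus strand. The exons of 294 bases each were identical at 261 positions and differed at 33, an identity of 88.8%, and capitals mark the differing bases.
Trbv13-1: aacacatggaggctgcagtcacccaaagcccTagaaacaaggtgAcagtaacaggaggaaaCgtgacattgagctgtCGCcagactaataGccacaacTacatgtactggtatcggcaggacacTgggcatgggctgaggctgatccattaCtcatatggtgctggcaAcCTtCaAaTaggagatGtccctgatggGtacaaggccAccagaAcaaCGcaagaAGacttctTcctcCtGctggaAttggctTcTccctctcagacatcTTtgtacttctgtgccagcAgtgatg
Trbv13-2: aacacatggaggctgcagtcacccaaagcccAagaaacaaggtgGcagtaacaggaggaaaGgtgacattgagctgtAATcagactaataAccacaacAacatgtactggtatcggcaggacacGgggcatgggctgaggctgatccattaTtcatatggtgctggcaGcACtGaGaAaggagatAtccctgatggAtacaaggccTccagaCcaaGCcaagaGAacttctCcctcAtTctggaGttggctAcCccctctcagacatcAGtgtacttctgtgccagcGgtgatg
The differences were spread along the exon. Of the stretches of 50 bases, 0% of Trbv13-1 and 0.344% of Trbv13-2 were found in another V gene, so that counts of these genes rest on separable sequence.

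BALB/c mice carry endogenous mouse mammary tumour viruses whose superantigens delete T cells with particular V beta chains in the thymus. The beta genes of chains for which such deletion is known are Trbv26 (Tcrb-V3), Trbv12-2 (Tcrb-V5.1), Trbv12-1 (Tcrb-V5.2), Trbv16 (Tcrb-V11) and Trbv15 (Tcrb-V12). Together they made up 7.74% ± 0.964 (SD, n = 4) of the Trbv level per length in control mice and 8.62% ± 0.778 (SD, n = 4) in tRA mice. Trbv26 had 8, 8, 13 and 0 counts in control mice 1 to 4 and 2, 6, 6 and 4 counts in tRA mice 1 to 4, and it did not pass the filter. Trbv12-1 had 22, 17, 15 and 12 counts in control mice 1 to 4 and 18, 15, 15 and 11 counts in tRA mice 1 to 4. Neither gene separated the groups, and both were counted at low levels throughout. Trbv15 was at 0.622, 1.03, 1.24 and 1.29 CPM in control mice 1 to 4 and 1.19, 0.976, 1.14 and 1.28 CPM in tRA mice 1 to 4. Trbv16 was at 1.06, 1.06, 1.44 and 1.32 CPM in control mice 1 to 4 and 1.71, 1.54, 1.33 and 1.47 CPM in tRA mice 1 to 4. Per length, these genes held ranks 15, 16, 19 and 20 of 22, with 3.43 CPM per kb for Trbv16, 2.96 for Trbv15, 1.19 for Trbv12-1 and 0.469 for Trbv26, and their groups overlapped. Trbv12-2 stood apart from them at rank 10, with 11.98 CPM per kb and 4.09, 4.51, 3.81 and 3.75 CPM in control mice 1 to 4 and 5.01, 4.03, 5.91 and 5.77 CPM in tRA mice 1 to 4.

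The sequences of the Trbv12 pair are shown because their levels differed although the exons are close relatives. The coding V exon lies on chromosome 6 from 41113775 to 41114067 for Trbv12-1 and on chromosome 6 from 41119072 to 41119364 for Trbv12-2, both on the plus strand of GRCm38. Of 293 bases, 261 were identical and 32 differed, an identity of 89.1%, and capitals mark the differing bases.
Trbv12-1: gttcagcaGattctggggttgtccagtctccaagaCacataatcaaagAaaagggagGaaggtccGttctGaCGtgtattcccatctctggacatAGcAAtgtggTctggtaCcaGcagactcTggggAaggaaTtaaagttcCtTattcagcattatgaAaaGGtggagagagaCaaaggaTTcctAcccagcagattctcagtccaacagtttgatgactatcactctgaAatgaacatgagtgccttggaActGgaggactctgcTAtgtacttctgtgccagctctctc
Trbv12-2: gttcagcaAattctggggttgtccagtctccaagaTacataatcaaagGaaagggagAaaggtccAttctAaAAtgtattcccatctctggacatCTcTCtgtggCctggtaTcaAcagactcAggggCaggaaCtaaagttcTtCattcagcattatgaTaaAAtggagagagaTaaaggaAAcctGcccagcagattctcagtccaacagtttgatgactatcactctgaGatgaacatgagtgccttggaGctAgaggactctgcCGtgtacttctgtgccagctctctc
Trbv12-1 shared 0% of its stretches of 50 bases with any other V gene and Trbv12-2 shared 1.19%, so that most of each transcript can be told apart in this annotation. Whether BALB/c alleles at these genes moved reads between them was not tested. The other beta genes of note for position were Trbv4 and Trbv5, which lie within the longer transcript 5830405F06Rik on the same strand, and their counts are uncertain for that reason.

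The Trav genes, on chromosome 14 from 52427928 to 53977678, include a segment of the locus that is present several times in C57BL/6J mice, and copies carry the letter d or n in their symbols. Of 46 Trav genes without a letter, 1 had 0 counts in all mice, against 17 of 34 d genes and 19 of 28 n genes. Shared sequence went along with this. All stretches of 50 bases recurred in another V gene for 35 Trav genes, and 30 of them were at 0 in every mouse. At least 50% but not all stretches recurred for 31 genes, 5 of them at 0, and a lower share recurred for 34, 2 of them at 0. None of the 8 Trav genes without a recurring stretch was at 0. A count of 0 for an identical copy cannot be read as a lack of RNA if reads that match several places were left out of the count, and the sources used here do not state how such reads were treated.

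**Figure D3:**
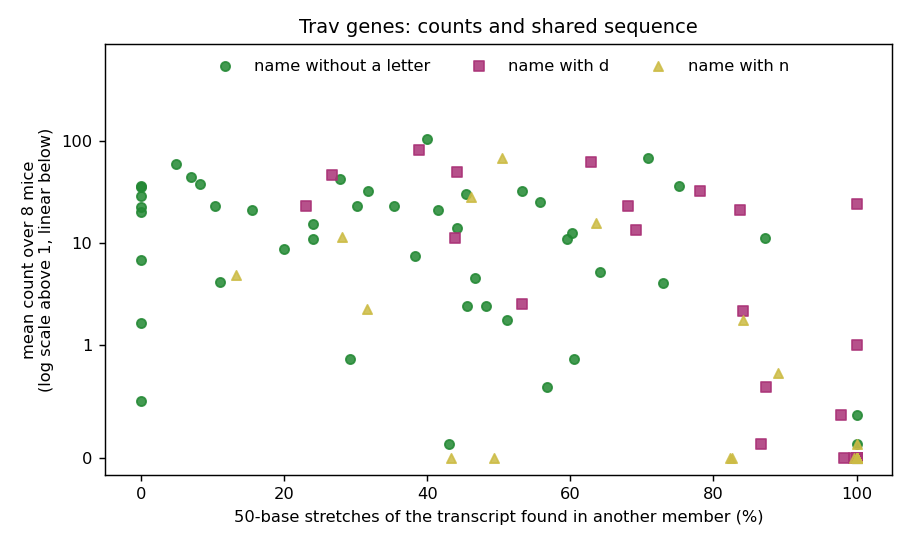
Mean count over 8 mice of each of the 108 Trav genes (log scale above 1 count, linear below) against the percentage of its 50-base stretches that recur in another V gene, by name with no letter, d or n. Of the 35 genes at 100%, 30 lie at 0, and Trav6d-7 is the highest of the others with a mean of 24.1 counts.

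Trav11 and Trav11d show the limit for a gene with a known role. Trav11 encodes the V alpha 14 segment of the invariant receptor of NKT cells, and both genes had 0 counts in all 8 mice. The coding V exon lies on chromosome 14 from 53519569 to 53519859 for Trav11 and on chromosome 14 from 52824623 to 52824912 for Trav11d, both on the plus strand of GRCm38. The 290 aligned bases were identical, with 0 mismatches, and 1 further base stood at the end of the Trav11 exon, in capitals.
Trav11: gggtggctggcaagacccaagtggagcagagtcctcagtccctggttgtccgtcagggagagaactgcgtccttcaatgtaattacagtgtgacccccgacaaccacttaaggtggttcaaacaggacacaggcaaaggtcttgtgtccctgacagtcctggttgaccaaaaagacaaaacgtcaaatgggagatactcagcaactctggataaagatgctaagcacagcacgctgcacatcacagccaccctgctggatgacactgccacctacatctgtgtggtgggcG
Trav11d: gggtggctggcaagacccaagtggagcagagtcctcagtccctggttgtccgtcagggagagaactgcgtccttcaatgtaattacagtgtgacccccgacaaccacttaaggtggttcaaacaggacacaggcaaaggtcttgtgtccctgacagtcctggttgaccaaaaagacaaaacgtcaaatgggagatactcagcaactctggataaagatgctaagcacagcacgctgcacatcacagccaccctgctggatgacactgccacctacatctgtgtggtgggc
NKT cells could thus not be followed by their alpha V gene in these counts. Zbtb16, a transcription factor of innate-like T cells, was at 4.43 ± 1.27 CPM (SD, n = 4) in control and 4.66 ± 0.374 CPM (SD, n = 4) in tRA mice. Zbtb16 alone does not show the level of NKT cells, and the other genes of the innate-like T cell list, given below, went both ways. Trav1, the alpha V gene of mucosal-associated invariant T cells, shared no stretch of 50 bases with another V gene and had 4, 8, 9 and 11 counts in control mice 1 to 4 and 8, 3, 4 and 7 counts in tRA mice 1 to 4. These counts overlapped between the groups and were too low for the test.

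Trav6d-7 had 18, 10, 20 and 35 counts in control mice 1 to 4 and 28, 23, 29 and 30 counts in tRA mice 1 to 4, although every stretch of 50 bases recurs in Trav6n-7, which had 0 counts in all mice. It was chosen after its values were seen. The counts are therefore those of reads assigned to Trav6d-7 by a rule that the sources used here do not give, and the gene is uncertain.

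The highest Trav levels per length were those of Trav3-3, Trav14d-3-dv8, Trav16d-dv11, Trav7-3 and Trav16n, at 7.38, 5.42, 5.26, 5.13 and 4.87 CPM per kb. Together they made up 25.4% ± 2.19 (SD, n = 4) of the summed Trav level per length in control mice and 25.6% ± 1.27 (SD, n = 4) in tRA mice. The second to the fifth of these levels differed by less than the spread between mice. Trav3-3 (ENSMUSG00000094828, chromosome 14 from 53665929 to 53666506) was measured at 2.52, 2.68, 2.77 and 3.72 CPM in control mice 1 to 4 and 2.87, 2.71, 3.77 and 3.70 CPM in tRA mice 1 to 4. Trav14d-3-dv8 (ENSMUSG00000094619, chromosome 14 from 53078452 to 53079045) was at 1.71, 2.21, 1.502 and 3.04 CPM in control mice 1 to 4 and 2.29, 3.15, 3.01 and 2.87 CPM in tRA mice 1 to 4. For both genes control mouse 4 was within the range of the tRA mice, and the groups overlapped. Trav16d-dv11 (ENSMUSG00000076796, chromosome 14 from 53047287 to 53047821) was at 1.43, 1.81, 1.33 and 2.17 CPM in control mice 1 to 4 and 1.83, 2.68, 1.63 and 1.99 CPM in tRA mice 1 to 4. Trav16n (ENSMUSG00000076822, chromosome 14 from 53351028 to 53351621) was at 1.11, 1.34, 1.94 and 2.29 CPM in control mice 1 to 4 and 1.83, 2.99, 2.66 and 2.02 CPM in tRA mice 1 to 4. tRA mouse 2 had the highest level of both genes. Trav7-3 was at 1.79, 1.93, 1.79 and 2.39 CPM in control mice 1 to 4 and 2.60, 2.05, 1.84 and 2.11 CPM in tRA mice 1 to 4, also with overlapping groups, and its near copy Trav7d-3 was at 0.487, 0.373, 0.116 and 0.291 CPM in control mice 1 to 4 and 0.428, 0.598, 0.380 and 0.489 CPM in tRA mice 1 to 4.

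Trav16d-dv11 and Trav16n are near-identical copies that were nevertheless both counted. Their coding V exons lie on chromosome 14 from 53047521 to 53047821 and on chromosome 14 from 53351321 to 53351621, on the plus strand of GRCm38. Of 301 bases, 3 differed, an identity of 99.0%. In Trav16d-dv11, 62.8% of the stretches of 50 bases recur in another V gene, and in Trav16n 50.5%. Levels of either gene alone are uncertain for this reason.

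Summed by name, Trav genes without a letter were at 23.6, 24.6, 20.2 and 29.4 CPM in control mice 1 to 4 and 27.0, 29.0, 28.7 and 31.6 CPM in tRA mice 1 to 4. The d genes were at 9.36, 10.6, 8.93 and 13.4 CPM in control mice 1 to 4 and 11.9, 13.7, 12.99 and 13.6 CPM in tRA mice 1 to 4. The n genes were at 2.60, 3.14, 3.67 and 4.04 CPM in control mice 1 to 4 and 4.28, 5.10, 4.75 and 4.22 CPM in tRA mice 1 to 4. Among these sums, those of the n genes alone did not overlap between groups, although the lowest tRA mouse and the highest control mouse were 4.22 and 4.04 CPM. The n sum rests on 96 to 127 counts per control mouse and 138 to 175 per tRA mouse, and 19 of the 28 n genes had 0 counts. The sum includes Trav16n, whose own level is uncertain because of its near copy. The 10 dv genes, which alpha and delta chains share, summed to 6.14, 7.66, 5.63 and 9.89 CPM in control mice 1 to 4 and 7.79, 9.76, 8.65 and 9.69 CPM in tRA mice 1 to 4. The 8 Trav genes without a recurring stretch of 50 bases, whose counting is the least ambiguous, summed to 3.87, 4.14, 3.00 and 5.14 CPM in control mice 1 to 4 and 4.70, 5.13, 4.91 and 5.65 CPM in tRA mice 1 to 4. In the dv sum control mouse 4 was the highest of all 8 mice, and in the other it was within the range of the tRA mice, while the other 3 control mice were below all tRA mice in both, as in the sum over all Trav genes. These sums were not tested.

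Of the 5 delta V genes, Trdv2-2, Trdv1 and Trdv5 passed the filter, at 2.00, 1.64 and 0.782 CPM per kb. Trdv2-2 was at 0.677, 0.405, 0.867 and 0.969 CPM in control mice 1 to 4 and 1.07, 0.693, 1.11 and 0.550 CPM in tRA mice 1 to 4. Trdv1 was at 0.514, 0.436, 0.405 and 0.646 CPM in control mice 1 to 4 and 0.702, 0.567, 0.759 and 0.397 CPM in tRA mice 1 to 4. Neither gene separated the groups. Trdv2-2 shares 52.6% of its stretches of 50 bases with Trdv2-1, which had 1 to 4 counts per mouse. Trdv5 was at 0.406, 0.280, 0.867 and 0.0646 CPM in control mice 1 to 4 and 0.214, 0.252, 0.352 and 0.306 CPM in tRA mice 1 to 4, with the widest scatter in the control group, where mouse 3 was the highest and mouse 4 the lowest of all 8. It overlaps Trdc, the delta constant gene, on the other strand, and as the use of strand in counting is not given in the sources used here, reads of both cannot be told apart. Trdv4 had 8, 1, 2 and 3 counts in control mice 1 to 4 and 1, 8, 10 and 8 counts in tRA mice 1 to 4. The spleen holds few gamma delta T cells. Trdc was at 18.4 ± 4.31 CPM (SD, n = 4) in control and 18.6 ± 1.76 CPM (SD, n = 4) in tRA mice, about equal in both groups.

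Of the 7 gamma V genes, Tcrg-V1, Tcrg-V4 and Trgv2 passed the filter, at 1.62, 1.61 and 1.264 CPM per kb, levels that did not differ beyond the spread between mice. Tcrg-V1 was at 0.487, 0.747, 0.549 and 0.905 CPM in control mice 1 to 4 and 0.489, 0.409, 0.651 and 0.611 CPM in tRA mice 1 to 4. Tcrg-V4 was at 0.487, 0.685, 0.693 and 0.711 CPM in control mice 1 to 4 and 0.367, 0.787, 0.976 and 0.794 CPM in tRA mice 1 to 4. Trgv2 was at 0.650, 0.809, 0.405 and 0.355 CPM in control mice 1 to 4 and 0.428, 0.441, 0.868 and 1.01 CPM in tRA mice 1 to 4. In none of these genes did the groups separate, and tRA mice 3 and 4 had the highest Trgv2 levels. Tcrg-V3, Tcrg-V5, Tcrg-V6 and Tcrg-V7 had at most 4 counts in any mouse. Tcrg-V4, Tcrg-V5, Tcrg-V6 and Tcrg-V7 overlap Gm31887 on the other strand. The gamma constant genes Tcrg-C1, Tcrg-C2, Tcrg-C3 and Tcrg-C4 summed to 11.4, 12.2, 10.1 and 10.6 CPM in control mice 1 to 4 and 12.2, 9.45, 12.5 and 12.7 CPM in tRA mice 1 to 4, with overlapping groups.

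The comparison of tRA with control mice used edgeR's quasi-likelihood test on all 16484 genes that passed the filter. The p values were adjusted over all of them after Benjamini-Hochberg, which gives the false discovery rate, FDR. Of the 67 V genes tested, 0 had an FDR under 0.1, and the share over all genes was 0.0%. The lowest FDR of a V gene in this edgeR quasi-likelihood test, adjusted after Benjamini-Hochberg, was 0.757. When a mouse was omitted, the lowest FDR by the same test ranged from 0.318 (without tRA mouse 1) to 0.999 (without tRA mouse 4). DESeq2 fitted 105 V genes, gave an adjusted p to 32 of them and called 0, while it called 27 of the 13625 genes of any kind with an adjusted p (0.198%). At an unadjusted p under 0.05, 7 V genes were higher in tRA mice, or 10.4% of those tested, where 2.94% of all genes tested were higher, and 0 V genes were lower, where 3.55% of all genes were lower (6.49% in either direction). The 7 genes were Trav8n-2, Trav10d, Trbv12-2, Trav6-1, Trav7d-4, Trbv2 and Trav10n, of which Trav8n-2 and Trav10n reached the filter level in all tRA mice but not in all control mice. Among the 53 V genes that all mice of both groups had at the filter level, the number was 5. The number moved with the settings. It was 3 with DESeq2 (2.86% against 1.94% of all genes higher at this p) and 2 with no filter on low counts (1.905% against 2.30%).

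The same number also depended on single mice. Leaving out control mouse 1, 2, 3 or 4 gave 1, 4, 4 and 12 V genes higher in tRA mice at an unadjusted p under 0.05, where 2.59, 2.81, 2.59 and 2.55% of all genes tested were higher. Leaving out tRA mouse 1, 2, 3 or 4 gave 5, 4, 3 and 1 V genes, where 4.94, 1.76, 2.501 and 1.56% of all genes were higher. In percent of the V genes tested, the numbers were 1.49, 5.88, 5.97 and 17.9% for the control mice and 7.35, 5.97, 4.55 and 1.47% for the tRA mice. Leaving out control mouse 1 or tRA mouse 4 thus put the share of V genes below that of all genes, and leaving out any other mouse put it above.

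Although no V gene was called, most fold changes of V genes had the same sign. The log2 fold change was positive for 54 of the 67 V genes (80.6%) and negative for 13, whereas 50.3% of all genes tested were positive. Of the 53 V genes at the filter level in all mice, 45 were positive, with a median of 0.24. The median was 0.24 over the 67 V genes and 0.00 over all genes tested. By chain, 36 of 42 Trav genes were positive with a median of 0.29, and 14 of 19 Trbv genes with a median of 0.13. For Trdv and for Trgv with Tcrg-V, 2 of 3 genes each were positive. The Trbv median was 0.0794 without control replicate 2 and 0.20 without control replicate 4. Among all 105 V genes with at least 1 count, including those below the filter, 78 had a higher mean CPM in tRA mice and 27 a lower one. V genes are counted in the same 8 libraries and share T cells, so that they are not independent of each other, and the direction as a whole was not tested. Within the groups, the spread of V genes between mice exceeded counting error, for which the chi-square per degree of freedom is about 1. Its median was 1.75 (from 0.341 to 5.99 for Trav14-1), and it was above 2 for 27 of the 67 V genes. All 7543 genes tested in the same range of mean counts had a median of 3.21.

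**Figure D4:**
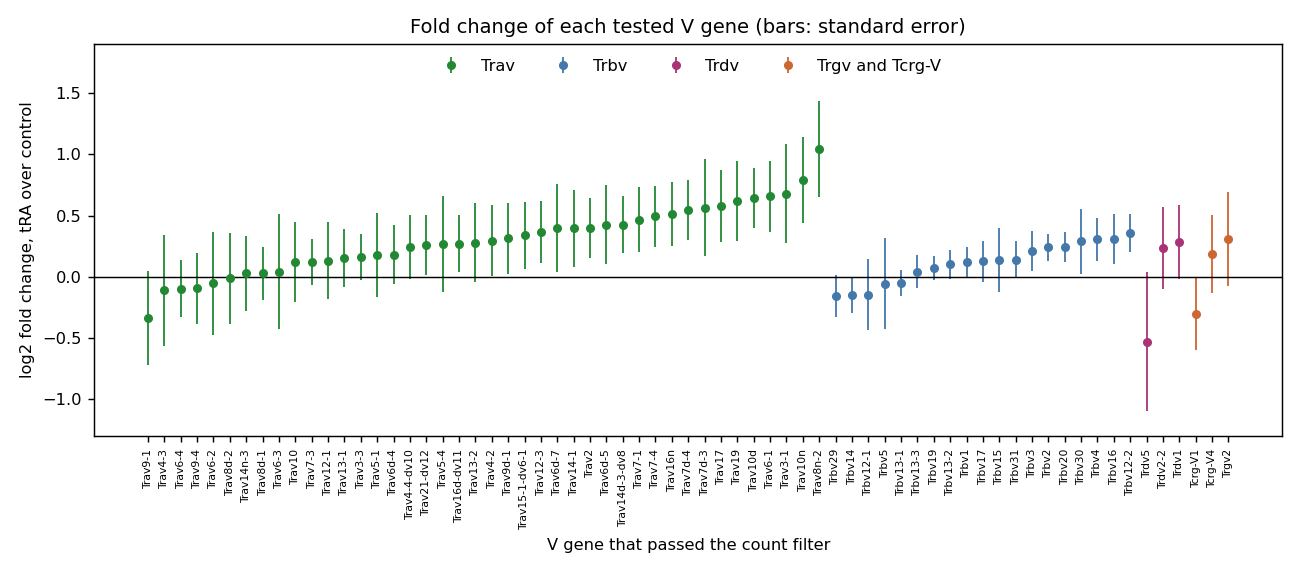
Log2 fold change, tRA over control, of each of the 67 tested V genes with its standard error, ordered within chains. The values run from -0.53 for Trdv5 to 1.04 for Trav8n-2, a gene tested because of its level in tRA mice, and 54 lie above 0.

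For 6 of the 67 V genes (8.96%) every tRA mouse was above every control mouse, which held for 1.91% of all genes tested. For 0 every tRA mouse was below, against 1.63% of all genes. Trav8n-2 (ENSMUSG00000076821, chromosome 14 from 53345890 to 53346424) was at 0.379, 0.156, 0.116 and 0.226 CPM in control mice 1 to 4 and 0.428, 0.409, 0.597 and 0.397 CPM in tRA mice 1 to 4. Control mouse 1 came closest to the tRA mice, and tRA mouse 3 was the highest (log2 fold change 1.04, standard error 0.393, FDR 0.757 by edgeR's quasi-likelihood test, adjusted after Benjamini-Hochberg). Of the control mice, 1 of 4 reached the filter level, so that the gene was tested because of the group in which it was higher, and its fold change carries that selection. The other 5 genes without overlap reached the filter level in all 8 mice. Trav10d (ENSMUSG00000094792, chromosome 14 from 52810934 to 52811496) was at 0.460, 0.591, 0.491 and 0.420 CPM in control mice 1 to 4 and 0.672, 0.756, 0.759 and 0.886 CPM in tRA mice 1 to 4, with a gap between control mouse 2 and tRA mouse 1 (log2 fold change 0.64, standard error 0.248, FDR 0.757, same test and adjustment). Its near copies Trav10n and Trav10, which share most stretches of 50 bases with it, were at 0.271, 0.280, 0.491 and 0.323 CPM in control mice 1 to 4 and 0.367, 0.819, 0.488 and 0.703 CPM in tRA mice 1 to 4 for Trav10n. For Trav10 the level was 0.406, 0.373, 0.318 and 0.323 CPM in control mice 1 to 4 and 0.214, 0.441, 0.407 and 0.489 CPM in tRA mice 1 to 4. Neither copy separated the groups, and the log2 fold changes were 0.79 for Trav10n and 0.12 for Trav10.

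Trav6-1 (ENSMUSG00000076762, chromosome 14 from 52638515 to 52638962) was at 0.568, 0.622, 0.318 and 0.614 CPM in control mice 1 to 4 and 0.733, 0.756, 0.786 and 1.07 CPM in tRA mice 1 to 4, where control mouse 3 was the lowest and tRA mouse 4 the highest (log2 fold change 0.66, standard error 0.287, FDR 0.757 by edgeR's quasi-likelihood test, adjusted after Benjamini-Hochberg). Trav7-4 (ENSMUSG00000094766, chromosome 14 from 53461099 to 53461738) was at 1.00, 1.03, 0.607 and 0.969 CPM in control mice 1 to 4 and 1.10, 1.04, 1.49 and 1.44 CPM in tRA mice 1 to 4. The groups met at control mouse 2 and tRA mouse 2, with 1.03 and 1.04 CPM (log2 fold change 0.49, standard error 0.249, FDR 0.778, same test and adjustment). Its near copy Trav7d-4, which shares 75.1% of its stretches of 50 bases with Trav7-4, was at 0.704, 0.840, 0.607 and 0.969 CPM in control mice 1 to 4 and 1.40, 0.945, 1.17 and 1.04 CPM in tRA mice 1 to 4 (log2 fold change 0.55, standard error 0.245, FDR 0.757, same test and adjustment), and its groups overlapped. Trav2, with 22, 20, 21 and 15 counts in control mice 1 to 4 and 24, 29, 23 and 26 counts in tRA mice 1 to 4, was the other alpha gene without overlap, and its log2 fold change was 0.40. It was named after its values were seen.

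Of the beta genes, Trbv2 (ENSMUSG00000076462, chromosome 6 from 41047340 to 41047995), whose synonym is Tcrb-V4, was at 8.17, 6.97, 8.44 and 8.72 CPM in control mice 1 to 4 and 9.25, 9.73, 9.38 and 9.78 CPM in tRA mice 1 to 4. All tRA mice lay between 9.25 and 9.78 CPM, above the highest control mouse, mouse 4 (log2 fold change 0.24, standard error 0.107, FDR 0.757 by edgeR's quasi-likelihood test, adjusted after Benjamini-Hochberg). For Trbv12-2, whose values are given with the superantigen targets, tRA mouse 2 lay among the control mice (log2 fold change 0.36, standard error 0.155, FDR 0.757, same test and adjustment). Trbv13-3 was at 8.15, 5.76, 6.96 and 7.72 CPM in control mice 1 to 4 and 7.02, 8.12, 6.97 and 7.33 CPM in tRA mice 1 to 4, with overlapping groups. Trbv13-2, Trbv13-1 and Trbv13-3 had log2 fold changes of 0.10, -0.05 and 0.04, with standard errors of 0.117, 0.108 and 0.133. Each of these values was within 1 standard error of 0. Trbv19 was at 9.91, 9.87, 10.6 and 11.1 CPM in control mice 1 to 4 and 11.5, 11.5, 10.7 and 9.87 CPM in tRA mice 1 to 4 (log2 fold change 0.07, standard error 0.0997), again with overlapping groups. Trbv20 was at 7.28, 6.57, 6.62 and 8.08 CPM in control mice 1 to 4 and 8.70, 8.31, 7.35 and 9.47 CPM in tRA mice 1 to 4, with a log2 fold change of 0.25 and overlapping groups. Trbv29 was at 5.12, 3.77, 4.42 and 5.46 CPM in control mice 1 to 4 and 3.24, 4.31, 4.80 and 4.43 CPM in tRA mice 1 to 4. Trbv1 was at 6.71, 5.32, 5.55 and 5.53 CPM in control mice 1 to 4 and 5.99, 5.98, 6.29 and 6.81 CPM in tRA mice 1 to 4. Neither gene separated the groups, and Trbv29 and Trbv1 had log2 fold changes of -0.16 and 0.12.

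Genes of the receptor's surroundings were compared in the same fit. Of the 8 constant genes, 7 were tested (Tcrg-C3 was not), 0 had an FDR under 0.1 and 0 an unadjusted p under 0.05, and their median log2 fold change was 0.04. This median was 0.12 when control mouse 3 was omitted, -0.00733 when tRA mouse 1 was omitted and -0.0359 with the CD3 level as a covariate, so that its sign was not stable. Trac had the value 0.12 (standard error 0.0835), Trbc1 -0.01 and Trbc2 0.04. All 4 genes of the CD3 complex, which carries the receptor to the surface and signals from it, were tested, with 0 at an unadjusted p under 0.05 and a median of 0.09, which was 0.0453 when control mouse 2 was omitted. Their summed level was 507, 506, 608 and 613 CPM in control mice 1 to 4 and 609.5, 582, 607 and 591 CPM in tRA mice 1 to 4, and control mice 1 and 2 were the lowest. With the CD3 level as a covariate, 53 of the 67 V genes had a positive log2 fold change, with a median of 0.22. The 51 Traj and 13 Trbj genes, J segments chosen after the V genes were seen, summed to 8.53, 8.65, 5.06 and 13.2 CPM in control mice 1 to 4 and 8.15, 9.07, 11.2 and 15.6 CPM in tRA mice 1 to 4 for Traj. The Trbj sum was 21.03, 25.96, 18.7 and 30.4 CPM in control mice 1 to 4 and 21.2, 27.6, 35.0 and 33.8 CPM in tRA mice 1 to 4. The groups overlapped in both sums. Of the 70 J genes of any chain, 18 were tested, and 18 had a positive log2 fold change, with a median of 0.29, where 50.3% of all genes tested were positive. At an unadjusted p under 0.05, 2 were higher (11.1%, against 2.94% of all genes tested). Among the 69 J genes with at least 1 count, 46 had a higher mean CPM in tRA mice and 23 a lower one.

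Of the 13 genes of V(D)J recombination, 11 were tested and 0 had an FDR under 0.1. Rag1, a subunit of the recombinase, was at 1.65, 0.871, 0.867 and 0.743 CPM in control mice 1 to 4 and 0.702, 0.283, 0.352 and 0.581 CPM in tRA mice 1 to 4. All tRA mice were below all control mice (log2 fold change -1.11, standard error 0.369, FDR 0.757, unadjusted p 0.0120, edgeR's quasi-likelihood test, adjusted after Benjamini-Hochberg). Rag2, its partner, was at 0 to 0.0945 CPM and was not tested, like Ptcra, the alpha chain of the receptor on precursor T cells. Lig4, a ligase that seals the joint, was the other gene at an unadjusted p under 0.05, with 9.70 ± 0.816 CPM (SD, n = 4) in control and 11.5 ± 1.22 CPM (SD, n = 4) in tRA mice and overlapping groups. The median over the 11 genes was 0.02, and it was -0.00614 when control mouse 1 was omitted.

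Markers of the cells that total splenocytes hold were given beside the V genes. Of 10 T cell markers, 9 had a positive log2 fold change, 2 of them (Cd28 and Tcf7) at an unadjusted p under 0.05, 0 had an FDR under 0.1, and the median was 0.13. Their summed level was 2198, 2275, 2482 and 2516 CPM in control mice 1 to 4 and 2619, 2482, 2498 and 2535 CPM in tRA mice 1 to 4, and the most abundant gene was Lck, at 531 ± 72.7 CPM (SD, n = 4) in control and 505 ± 41.9 CPM (SD, n = 4) in tRA mice. Control mice 1 and 2 were lower than the other 6 mice. No T cell marker was at 0. Of the 8 genes of the innate-like T cell list, all tested, 2 (Slamf1 and Slamf6) were higher and 0 lower at an unadjusted p under 0.05. The list includes Cd1d1, Cd1d2 and Mr1, which present antigen to such cells and are not markers of them. Its counts, median and sum are therefore not those of innate-like T cells alone. The log2 fold change was positive for 5 of the 8 and negative for 3, with a median of 0.05. Their sum was 437, 478, 481 and 459 CPM in control mice 1 to 4 and 491, 520.4, 538 and 525 CPM in tRA mice 1 to 4, where all tRA mice were above all control mice. Most of this sum came from Slamf6, which B cells also express, so that it does not show the level of the others. Slamf6 was at 345 ± 16.5 CPM (SD, n = 4) in control and 392 ± 17.4 CPM (SD, n = 4) in tRA mice. Of 10 markers of gamma delta T17 cells, 8 were tested, 4 were higher and 0 lower at an unadjusted p under 0.05, and Il17a and Il17f were below the filter. The 4 genes, Sox13, Il23r, Cd163l1 and 5830411N06Rik, did not overlap between the groups, and the list's median log2 fold change was 0.56, with 7 of 8 positive. Over all genes tested, 2.94% were higher at this p and 1.91% had every tRA mouse above every control mouse. The paper had reported Sox13 and 5830411N06Rik as changed in these same samples, so that they are not independent support for a difference. In the fit of all mice with the filter on low counts, edgeR called 0 of the 8 list genes tested. The sum was 415, 425, 435 and 411 CPM in control mice 1 to 4 and 405, 409, 439.9 and 394 CPM in tRA mice 1 to 4. Most of the sum came from Blk, a kinase that B cells also express and the only gene of the 8 with a negative value, so that the sum does not show the level of the others.

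Of 9 markers of neutrophils and their precursors, 0 were higher and 9 lower in tRA mice at an unadjusted p under 0.05, with a median of -0.88. Over all genes tested, 3.55% were lower at this p. The paper had reported Camp, Ngp and Ltf as changed in these same samples, so that they are not independent support for a difference. Fitted on all mice with the filter on low counts, 0 of the 9 markers were called by edgeR's quasi-likelihood test, adjusted after Benjamini-Hochberg. Their sum was 869, 1119.5, 1134 and 977 CPM in control mice 1 to 4 and 492, 537, 517 and 828 CPM in tRA mice 1 to 4, and the most abundant gene, Ngp, was at 325 ± 44.0 CPM (SD, n = 4) in control and 171 ± 50.9 CPM (SD, n = 4) in tRA mice. All tRA mice were below all control mice. None of the 9 markers was at 0 in all mice, and their part in the result for the V genes was not tested. Over the 14 gene lists, DESeq2 called 6 genes (Sox13, Lcn2, 5830411N06Rik, Camp, Ngp and Ltf), edgeR with no filter on low counts called 4 (5830411N06Rik, Camp, Ngp and Ltf), and edgeR without tRA mouse 4 called 3 (Camp, Ngp and Ltf). Of 6 plasma cell markers, 0 were higher and 2 (Jchain and Mzb1) lower at an unadjusted p under 0.05. The log2 fold change was positive for 3 of the 6 and negative for 3, with a median of -0.08, and the groups overlapped in the sum. Jchain, the most abundant, was at 609 ± 80.3 CPM (SD, n = 4) in control and 443 ± 72.3 CPM (SD, n = 4) in tRA mice, with overlapping groups. In Mzb1 and Sdc1 all tRA mice were below all control mice, which held for 1.63% of all genes tested. Mzb1 was at 84.7 CPM in control and 68.1 CPM in tRA mice, and Sdc1 at 16.8 and 14.9 CPM (group means). B cell (9 tested), NK cell (5), monocyte and macrophage (7), dendritic cell (6), erythroid (6) and platelet (3) markers had 0 genes at an unadjusted p under 0.05 and 0 with an FDR under 0.1. Their medians were 0.00, -0.03, -0.01, -0.12, 0.44 and -0.10 in that order. The most abundant genes were Cd79a, Gzma, Lyz2, Itgax, Hbb-bs and Itga2b, and the groups overlapped in each of these 6 sums. The erythroid sum varied widely between mice, with 811, 1526, 2396 and 491 CPM in control mice 1 to 4 and 2286, 623, 3541 and 587 CPM in tRA mice 1 to 4.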

How the data were processed

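RNA of total splenocytes from 8 mice had been sequenced on 1 HiSeq2500 lane. The deposited values are counts per gene. For them, the authors' methods name Btrim, Tophat2 with Bowtie2 and HTSeq, while the submitters' notes name STAR 2.5.2b, featureCounts 1.5.1 and DESeq2 1.26.0 on GRCm38, and neither states the use of strand. The deposited table of log2 fold changes and p-values was not used. Of 51826 gene IDs, 51633 were found in GENCODE M21 and 193 were not. Groups follow the sample titles.

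Counts were filtered with filterByExpr, normalized with TMM and compared by edgeR 4.0.16 in R 4.3.3 (quasi-likelihood test, Benjamini-Hochberg over all genes tested, FDR under 0.1). Alternatives were DESeq2 1.42.0, RLE, library size alone, no filter, at least 10 counts in every sample, a replicate block, a covariate for the CD3 level and the omission of each mouse in turn. The same alternatives for the gene lists were added after the values were seen. The scripts, which also used Python 3.11.15, matplotlib 3.10.9 and biopython 1.88, were tested on simulated data. Levels per length are CPM per kb of the union of exons. Named genes were the 5 highest per chain and length, the 5 lowest in p per direction among those without overlap, genes of known T cell subsets or superantigens, and copies that share at least 50% of their stretches of 50 bases with a named gene, a limit set after the counts were read. Members and the 14 gene lists were chosen with earlier results of these data known. The mice differ in strain from the reference.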

Additional observations from a re-analysis of the deposited data

Results flagged for a closer look

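A mouse was marked when it lay far from the other 3 of its group by Dixon's test, and all values are in CPM. Of 92 groups examined, 13 were marked, where about 1 in 20, or 4.6, would be by chance. That rate assumes normal values in independent groups, which genes with few counts and sums that include other listed genes do not meet. None of these differences was tested further. Trbv13-1 in control mouse 3 was 10.6, with 13.2 to 13.3 in the others. Trdv4 in tRA mouse 1 was 0.0305, with 0.244 to 0.271 in the others. Tcrg-V4 in control mouse 1 was 0.487, with 0.685 to 0.711 in the others. Tcrg-V3 in control mouse 1 was 0.0812, with 0 in the others. In tRA mouse 3 it was 0, with 0.0611 to 0.0630 in the others. Tcrg-V7 in tRA mouse 3 was 0.0542, with 0 in the others. Tcrg-V3 and Tcrg-V7 rest on a handful of counts. Trav8n-2 in tRA mouse 3 was 0.597, with 0.397 to 0.428 in the others. Trav6-1 in tRA mouse 4 was 1.07, with 0.733 to 0.786 in the others. Trav7-4 in control mouse 3 was 0.607, with 0.969 to 1.03 in the others. Trbv1 in control mouse 1 was 6.71, with 5.32 to 5.55 in the others. Among the sums, Trbv in tRA mouse 4 was 104, with 98.2 to 99.2 in the others. Trdc in tRA mouse 2 was 16.0, with 19.3 to 19.9 in the others. The gamma constant genes in the same mouse were 9.45, with 12.2 to 12.7 in the others.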

How the results depend on the processing

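No V gene was called under any alternative. The number at an unadjusted p under 0.05 and higher in tRA mice, 7, was 3 in the DESeq2 fit, 2 when genes of low count were kept, and between 1 and 12 when a mouse was omitted. The cause was not tested. Genes of the 14 lists called, 0, became 6 in the DESeq2 fit, 4 when genes of low count were kept and between 0 and 3 when a mouse was omitted; the cause was not tested. When a mouse was omitted, 53 to 57 log2 fold changes of V genes were above 0, and the median ranged over 0.17 to 0.28 for V genes, 0.21 to 0.41 for Trav and 0.0794 to 0.20 for Trbv genes. The log2 ratio of the sums ranged over 0.21 to 0.39 for Trav, 0.0736 to 0.14 for Trbv, 0.0230 to 0.29 for Trdv and -0.0485 to 0.22 for Trgv with Tcrg-V.

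Of 457 alternative values of the 31 named genes tested, 452 kept direction and 5 reversed. Trbv13-1 reached 0.00079 with the CD3 covariate. When a mouse was omitted, Trbv13-3 ranged over -0.0484 to 0.11, Trbv15 over -0.0486 to 0.25 and Trav10 over -0.00549 to 0.32, and the cause was not tested. Trbv13-2 ranged over 0.0224 to 0.17, Trbv13-1 over -0.13 to -0.00160, Trbv29 over -0.25 to -0.0545 and Trbv1 over 0.0747 to 0.20. Trbv19 ranged over 0.0415 to 0.12, and Trdv5 over -0.87 to -0.42 in the omissions in which it was tested. The medians ranged over -0.00733 to 0.12 for the constant genes, 0.0453 to 0.13 for the CD3 complex and -0.00614 to 0.0358 for V(D)J recombination. With the CD3 covariate they were -0.0359, 0.0308 and -0.00225 in that order.

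As a block, the replicate number left 1 V gene higher at an unadjusted p under 0.05 and changed no call. This was 1.49% of the V genes tested against 2.94% of all genes, so that the share of V genes was above that of all genes without the block and below it with the block. The samples share only a number: same-numbered mice correlated at 0.157, -0.0229, -0.0140 and 0.259, and not every mouse correlated best with its own number.

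With 4 mice per group and few counts for most V genes, small differences were beyond the reach of the test, and a gene that was not called is not shown to be equal in both groups.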
